A study of Homo sapiens with 36 samples.

Results

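DDIT4 was followed here as 1 gene of the 21797 genes listed in an RNA-seq table of cells labelled UM-SCC-1, an established squamous carcinoma line of the head and neck. It was chosen by name: its row in the RNA table and its peaks in the tables of m6A changes, 14 of 37709 peaks listed over 4 tables. Cells received an shRNA by retrovirus, followed by 4 days of selection in blasticidin at 10 ug/mL. The groups were ALKBH5 shRNA-1 and ALKBH5 shRNA-2, set against the ALKBH5 Scramble group, and RBM33 shRNA-1 and RBM33 shRNA-2, set against the RBM33 Scramble group. All groups therefore carried a retroviral shRNA and had gone through drug selection, and the shRNAs of 1 target shared their scramble libraries. RNA values came from 2 libraries of RBM33 shRNA-1 and of each ALKBH5 shRNA, and from 3 libraries of each other group. Whether replicates were separate cultures is not stated in the labels, and p-values here cover the spread between libraries only, which may be technical.

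DDIT4, also called REDD1, encodes a short-lived stress protein that lowers the activity of mTORC1, the kinase complex that drives protein synthesis and growth, through the TSC1 and TSC2 complex and the small GTPase RHEB. Its transcription is known to rise in hypoxia through HIF1, in the integrated stress response through ATF4, after DNA damage through p53 and with glucocorticoids. ALKBH5 takes the methyl group off N6-methyladenosine (m6A), the most common internal mark of mRNA. RBM33 binds RNA, and the study's title describes it as a reader needed for ALKBH5 to act. In mRNA, m6A is known to be enriched around stop codons and in the untranslated region that follows them.

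The gene (ENSG00000168209) lies on the plus strand of chromosome 10 at 72273924 to 72276036 in hg38, a span of 2113 bases with an exonic length of 2054 bases. The 250 bases before its start, chr10:72273674-72273923 on the plus strand of GRCh38.p14 as RefSeq gives them, are shown because a listed m6A peak begins 5 bases before the start. Capitals mark hypoxia response cores, GCGTG or ACGTG, and CCAAT boxes, which read ATTGG where they lie on the other strand.
DDIT4 promoter: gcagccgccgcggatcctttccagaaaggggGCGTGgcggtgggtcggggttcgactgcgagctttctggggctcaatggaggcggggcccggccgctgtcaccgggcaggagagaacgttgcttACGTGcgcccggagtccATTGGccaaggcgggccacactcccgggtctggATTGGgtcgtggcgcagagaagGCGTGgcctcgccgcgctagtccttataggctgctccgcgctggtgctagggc
GCGTG began 219 and 53 bases before the start and ACGTG 125 bases before it, and the reversed CCAAT began 108 and 75 bases before it. None of these matches overlapped another. Over both strands, GCGTG was found in 32.2%, ACGTG in 18.5% and CCAAT in 32.0% of 35116 promoters of the same length. TATAAA, found in 10.7% of promoters, and the C/EBP-ATF element TGATGNAA, found in 3.14%, had no match in these 250 bases.

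The libraries held between 4493849 and 6733017 reads in listed genes. The ALKBH5 transcript had 75.08 to 89.59 CPM (read counts scaled to a normalized library size) in the ALKBH5 shRNA libraries, against 108.8 to 131.7 CPM in the ALKBH5 scramble libraries. Its fall was 0.53 on the log2 scale (limma adjusted p = 9.1e-05). The RBM33 transcript had 191.4 to 214.4 CPM in the libraries labelled RBM33 shRNA, against 207.2 to 227.1 CPM in the RBM33 scramble libraries. Its log2 difference of -0.10 was not called (limma adjusted p = 0.27), so RNA does not show the knockdown that those labels name, and RBM33 results below are those of the libraries so labelled. Of 7 squamous epithelial markers, CDH1 and EPCAM had medians of 1.73 and 1.20 CPM over the 15 libraries, and KRT5, KRT14, KRT17, KRT6A and TP63 were not analysed here. KRT8, KRT18 and VIM, looked up after the data were seen, had medians of 83.3, 41.5 and 351.1 CPM. The squamous markers measured were thus low against the simple keratins and vimentin and do not show the squamous identity that the label gives. Their part in the DDIT4 results was not tested. Among markers of other cell types, COL1A1 had a median of 20.8 CPM, and PTPRC, CD68, VWF, COL1A2, DCN and LUM had medians between 0.514 and 1.17 CPM.

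DDIT4 RNA was lower with every shRNA. Its level was 174.3 and 157 CPM in the ALKBH5 shRNA-1 libraries and 173.9 and 166.7 CPM in the ALKBH5 shRNA-2 libraries. The ALKBH5 scramble libraries had 293.7, 293.7 and 313.5 CPM. The highest ALKBH5 shRNA library was therefore well below the lowest ALKBH5 scramble library, and the shRNA libraries of this set lay close together.

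For RBM33, the libraries labelled shRNA-1 had 161.7 and 167.2 CPM of DDIT4, and those labelled shRNA-2 had 177.6, 181.8 and 168 CPM. The RBM33 scramble libraries had 361.4, 368.6 and 320.9 CPM. Here too the groups did not overlap, and RBM33 Scramble replicate 3 was the lowest of its group. These levels rested on 808 to 1216 reads in the shRNA libraries and 1663 to 2279 reads in the scramble libraries, so DDIT4 was far above the 3 reads that a count of 0 allows. In bulk RNA, fewer cells that express DDIT4 and less DDIT4 RNA per cell cannot be told apart.

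**Figure D1:**
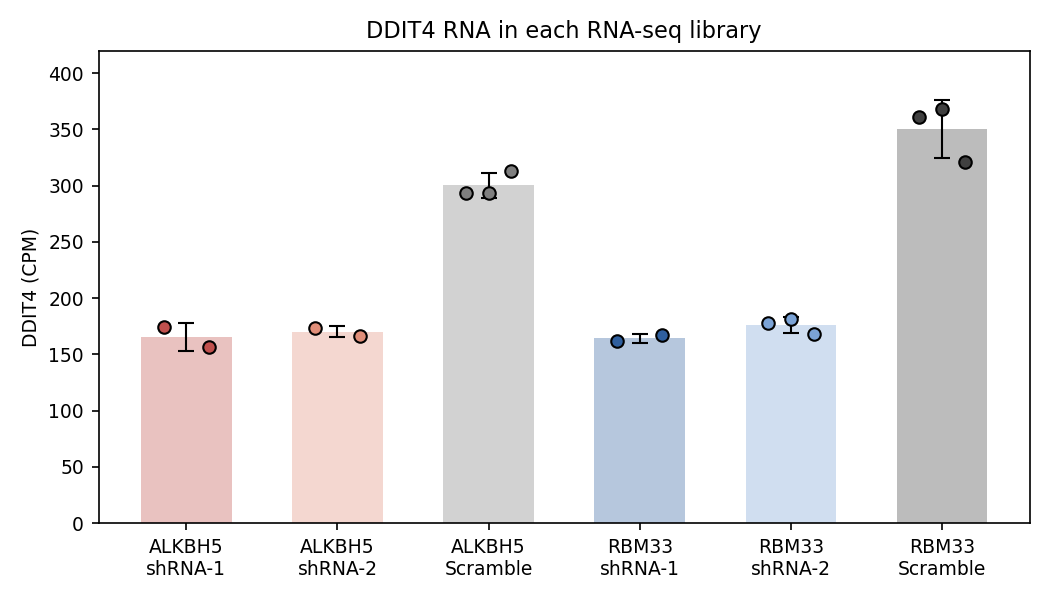
DDIT4 RNA in each of the 15 libraries, in CPM, by group. Points are libraries, bars are group means and error bars are SD over 2 or 3 libraries. All 9 shRNA libraries lie between 157 and 181.8 CPM, and all 6 scramble libraries between 293.7 and 368.6 CPM.

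All 9 shRNA libraries were below all 6 scramble libraries, which held for 3.04% of the 18227 genes tested. Within the sets, 11.9% of genes had all ALKBH5 shRNA libraries below all ALKBH5 scramble libraries, and 11.6% had the same in the RBM33 set. Group means were 165.6 ± 12.3 CPM with ALKBH5 shRNA-1 and 170.3 ± 5.09 CPM with ALKBH5 shRNA-2 (SD, n = 2 each), and 300.3 ± 11.4 CPM with ALKBH5 Scramble (SD, n = 3). They were 164.4 ± 3.89 CPM with RBM33 shRNA-1 (SD, n = 2), 175.8 ± 7.05 CPM with RBM33 shRNA-2 and 350.3 ± 25.7 CPM with RBM33 Scramble (SD, n = 3 each). Per kilobase of exon, DDIT4 was at 76.4 to 88.5 CPM in the shRNA libraries and 143 to 179.4 CPM in the scramble libraries. On that scale it ranked between 544 and 661 in the shRNA libraries and between 340 and 401 in the scramble libraries, with rank 1 the highest of the 18227 genes.

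Over both ALKBH5 shRNAs, DDIT4 fell by 0.84 (log2, SE 0.0688, 95% interval -0.98 to -0.69, limma adjusted p = 1.4e-08), to 56.1% of the scramble level. Of all genes tested, 7.18% were called lower in this comparison. Over both RBM33 shRNAs it fell by 1.04 (SE 0.0663, 95% interval -1.17 to -0.90, limma adjusted p = 7.8e-11), to 48.8% of the scramble level, with 9.25% of genes called lower. By p-value it was the 19th and the 17th gene of these comparisons. By the size of the fall it ranked lower down, at 137 and 96.

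Each shRNA gave the fall on its own. It was 0.86 with ALKBH5 shRNA-1 (limma adjusted p = 2.7e-07), a comparison in which 3.48% of genes were called lower. With ALKBH5 shRNA-2 it was 0.81 (limma adjusted p = 7.6e-07), with 5% of genes called lower. With RBM33 shRNA-1 it was 1.08 (limma adjusted p = 4.1e-09), with 5.27% called lower, and with RBM33 shRNA-2 it was 0.99 (limma adjusted p = 1.8e-09), with 7.27% called lower. The authors' deposited edgeR table gave log2 changes of -0.86, -0.82, -1.09 and -0.99 for the same 4 comparisons in the same order. The authors' deposited table in the layout of DESeq2 gave -0.90, -0.85, -1.0 and -0.98.

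The shRNAs of 1 target did not separate from each other. ALKBH5 shRNA-1 minus ALKBH5 shRNA-2 was -0.04 on the log2 scale (95% interval -0.23 to 0.15, limma adjusted p = 0.98). RBM33 shRNA-1 minus RBM33 shRNA-2 was -0.10 (95% interval -0.27 to 0.07, limma adjusted p = 0.94). In both of these comparisons 0% of genes were called. Across targets, the ALKBH5 shRNA libraries minus the RBM33 shRNA libraries gave -0.02 (95% interval -0.14 to 0.11, limma adjusted p = 0.94), where 0.302% of genes were called. Leaving out ALKBH5 shRNA-1 replicate 2, the lowest library, turned the first of these to 0.03 and the third to 0.02.

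The order of the group means was RBM33 shRNA-1, ALKBH5 shRNA-1, ALKBH5 shRNA-2, RBM33 shRNA-2, ALKBH5 Scramble and RBM33 Scramble, low to high. No neighbours among the first 4 differed beyond their spread. ALKBH5 Scramble minus RBM33 shRNA-2 was 0.77 on the log2 scale (limma adjusted p = 1.5e-07). ALKBH5 Scramble minus RBM33 Scramble was -0.22 (95% interval -0.37 to -0.07, limma adjusted p = 0.13), in a comparison where 2.48% of genes were called. The ALKBH5 effect minus the RBM33 effect was 0.20 (SE 0.0956, 95% interval 0.0037 to 0.40, limma adjusted p = 0.32), where 2.69% of genes were called. The fall was thus not shown to differ between the targets, and the difference in point estimates went with the scramble levels more than with the shRNA levels.

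DDIT4 m6A was listed as changed in all 4 of the authors' deposited tables of m6A effects, and 13 of its 14 peaks were higher with the shRNA. The tables hold 5 DDIT4 peaks of 13120 for ALKBH5 shRNA-1, 6 of 19251 for ALKBH5 shRNA-2, 2 of 2070 for RBM33 shRNA-1 and 1 of 3268 for RBM33 shRNA-2. At least as many peaks were listed for 7.57%, 9.47%, 21.7% and 100% of the genes in these tables, in the same order. At a p of at most 0.1 times the largest of each table, 4 and 5 DDIT4 peaks were left for ALKBH5 shRNA-1 and shRNA-2 and 0 for either RBM33 shRNA. Across all genes, effects above 0 made up 64.7%, 72.5%, 87.6% and 87.5% of the peaks listed in these tables, so higher m6A was the common direction. Of the 9164 genes with any listed peak, 582 (6.35%) were in all 4 tables. A gene was more often listed when its RNA was abundant. Among genes averaging 10 CPM or more, to which DDIT4 belongs, 50.3%, 58.1%, 12.5% and 17.8% had a listed peak, against 32.6%, 38.2%, 7.94% and 11.5% of all tested genes. These tables give 1 effect for each comparison, not 1 for each library, and hold no effect under 0.5 on the natural log scale. Folds below were computed from the authors' effects, read as natural logs, and have no SD. The files do not name the base of the logs.

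With ALKBH5 shRNA-1, the authors' deposited table had the DDIT4 peak of largest fold at the very start of the gene. That peak, at 72273919 to 72274018, was 16.5-fold higher with the shRNA than with scramble (the authors' deposited table, p = 6.6e-08). No peak was listed there with ALKBH5 shRNA-2 or with either RBM33 shRNA. A second peak with ALKBH5 shRNA-1, at 72274165 to 72274264, was 3.94-fold higher (the authors' deposited table, p = 8.1e-05). Near the middle of the gene, a 50-base peak at 72274938 to 72274987 had 0.567 of the scramble value (the authors' deposited table, p = 0.0002), the only lower peak of DDIT4 in the 4 tables. Toward the 3′ end there were peaks at 72275588 to 72275637, 3.4-fold higher (the authors' deposited table, p = 4.9e-05), and at 72275738 to 72275787, 2.44-fold higher (p = 0.0047).

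With ALKBH5 shRNA-2, all 6 peaks in the authors' deposited table were higher. The widest covered 300 bases, 72275388 to 72275687, and was 3.31-fold higher (the authors' deposited table, p = 2.5e-16), the 25th smallest p of its 19251 peaks. Next to it, 72275738 to 72275837 was 4.85-fold higher (the authors' deposited table, p = 2.7e-06), the largest fold of DDIT4 with this shRNA. The other 4 peaks of that deposited table lay between 72274215 and 72275137 and were 1.71-fold to 2.23-fold higher. One of these 4, from 72274415 to 72274787, had 2 blocks of 7 and 93 bases with a gap of 273 bases between them.

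With the RBM33 shRNAs, the 3 listed peaks of DDIT4 lay in the 3′ part of the gene, in tables that are also shorter over all genes. In the authors' deposited table for RBM33 shRNA-1, 72275388 to 72275437 was 1.87-fold higher (p = 0.00033) and 72275638 to 72275687 was 2.34-fold higher (p = 0.00062). In the authors' deposited table for RBM33 shRNA-2, the same 50 bases from 72275388 to 72275437 were 1.73-fold higher (p = 0.00027). All 3 peaks lay inside the 300-base peak of ALKBH5 shRNA-2, and none of them overlapped a peak of ALKBH5 shRNA-1.

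**Figure D2:**
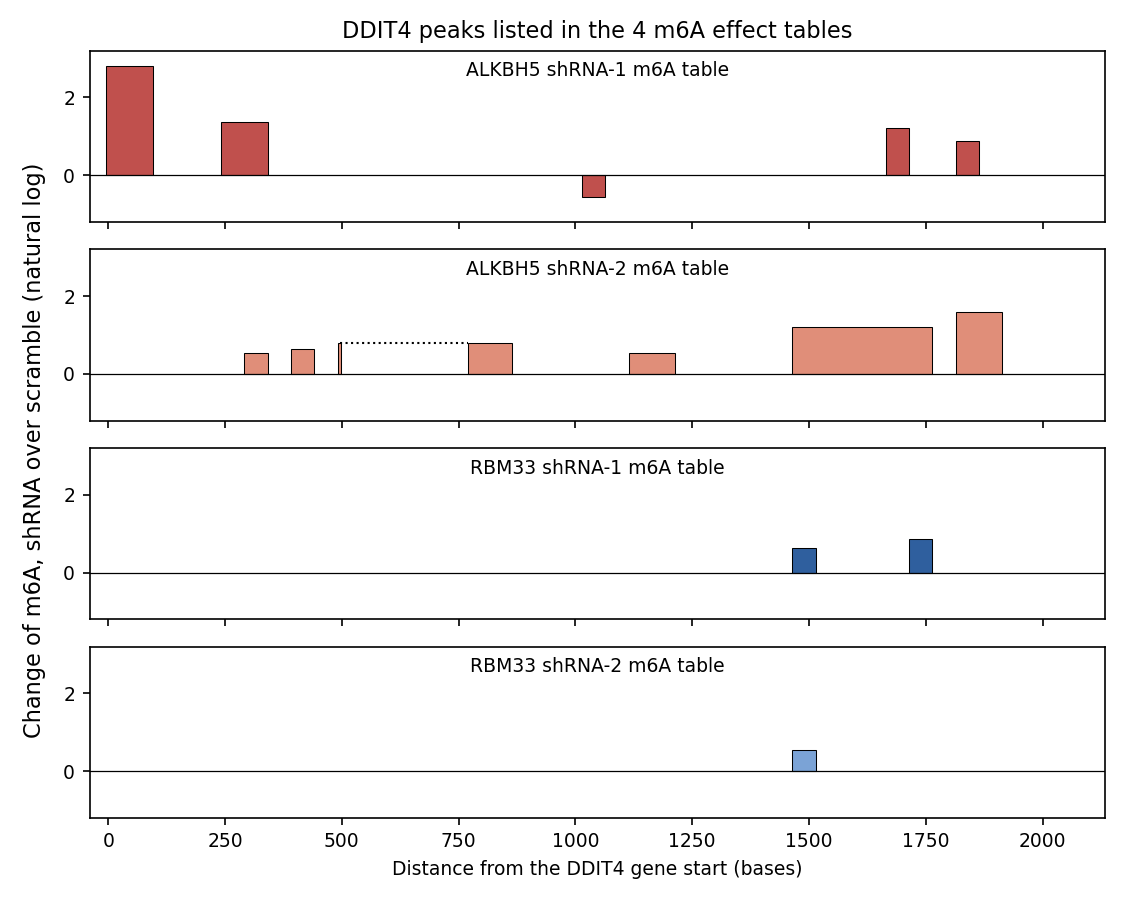
DDIT4 peaks in the authors' 4 tables of m6A effects. The horizontal axis is the distance from the gene start in bases, and the height of each bar is the authors' effect, shRNA over scramble, on the natural log scale. The dotted line joins the 2 blocks of 1 peak. Every table has at least 1 peak above 0 beyond 1464 bases from the start, and 1 peak, in the ALKBH5 shRNA-1 table, lies below 0.

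The peaks beyond 60% of the gene's length spanned 450 bases, from 72275388 to 72275837, which end 199 bases before the gene does. They were 7 of the 14 peaks, from all 4 tables, and all 7 were higher, by 1.73-fold to 4.85-fold. This stretch was drawn from the peaks themselves, so its count is a description, and the other 7 peaks, all from the ALKBH5 tables, lay before it. In windows of 50 bases, the 13 peaks with a single block covered 16 windows. Of these, 11 were in 1 table, 4 in 2 tables and 1 in 3 tables, and 0 were in all 4. The window in 3 tables was 72275388 to 72275437, listed for ALKBH5 shRNA-2 and for both RBM33 shRNAs. Across all genes, 3.05% of the ALKBH5 shRNA-2 peaks overlapped an RBM33 shRNA-1 peak, which was 28.8% of the RBM33 shRNA-1 peaks. For RBM33 shRNA-2 these shares were 4.2% and 25.2%. The part of the DDIT4 transcript in which these peaks lie, coding or untranslated, was not analysed here.

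A second kind of table gives the m6A level of a peak as a fraction of m6A and input signal, 1 value a group. Such a level is not the share of RNA molecules that carry m6A. DDIT4 was in 1 of these 4 tables. In the authors' deposited level table for ALKBH5 shRNA-2, the window 72275438 to 72275487 had a level of 78.7% with the shRNA, against 56.8% with scramble. The difference of 21.9 points had an adjusted p of 0.0005 in that table, rank 11 of its 182 peaks. The window lies inside the 300-base peak described above. In the scramble group DDIT4 was already among the peaks of higher level in that table: 60 of the 182 peaks had a higher scramble level, and the median was 36.0%. The level tables for ALKBH5 shRNA-1, RBM33 shRNA-1 and RBM33 shRNA-2 hold 721, 20 and 18 peaks, none of them in DDIT4. No value per library was used, so the DDIT4 m6A changes carry no replicate error and no test of a difference between ALKBH5 and RBM33.

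Lower DDIT4 RNA and higher m6A in its 3′ part were thus measured in the same 4 comparisons. The RNA libraries carry the name input in their column headers, and the m6A levels contain input signal. The RNA and m6A values may therefore share input reads and are not shown to be separate measurements. The sources used here do not say how the m6A effects were scaled to the amount of RNA, and the part of the RNA level in them was not tested.

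Around DDIT4, a list of 98 genes was followed by role, of which 95 were tested. In the ALKBH5 set 8 of the 95 rose and 22 fell, while 7.93% of all genes were called higher and 7.18% lower. Of the 95, 82 averaged 10 CPM or more, as did 10783 of 18171 tested gene names. The shares of RNA calls were not compared at matched abundance. The ALKBH5 counts depended on single libraries. The list had 30 calls with all libraries, 17, 18 and 19 without ALKBH5 Scramble replicates 1, 2 and 3 and 19 without ALKBH5 shRNA-1 replicate 1. Over all genes there were 2754 calls with all libraries and 1710 without ALKBH5 Scramble replicate 1. In the RBM33 set 9 rose and 22 fell, while 8.5% of all genes were called higher and 9.25% lower, and the 3235 calls over all genes became 2083 and 2062 without RBM33 Scramble replicates 1 and 2. The median log2 change of the 95 was -0.077 in the ALKBH5 set and -0.0781 in the RBM33 set, against 0.00506 and -0.0125 over all tested genes. Of the list, 12 genes fell in both sets, 5 rose in both and 0 moved in opposite directions. Over all tested genes 537 fell in both, 583 rose in both and 67 moved in opposite directions.

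Of 21 regulators of DDIT4, 8 fell and 1 rose in the ALKBH5 set, and 7 fell and 2 rose in the RBM33 set. ATF4, the transcription factor of the integrated stress response, had 551.2 to 577.8 CPM in the ALKBH5 shRNA libraries, against 468.1 to 502.6 CPM in their scramble libraries. It rose by 0.21 on the log2 scale (limma adjusted p = 0.026), while its difference in the RBM33 set was 0.02 (limma adjusted p = 0.86). ATF4 was thus not called lower in either set. VHL, the ubiquitin ligase subunit that removes HIF proteins, fell to 116.5 to 144.5 CPM with the ALKBH5 shRNAs, against 188.9 to 224.7 CPM with scramble, by 0.66 on the log2 scale (limma adjusted p = 1.8e-06). With the RBM33 shRNAs VHL fell by 0.32 (limma adjusted p = 0.0031). HIF1A, the hypoxia factor itself, fell by 0.34 with the ALKBH5 shRNAs (limma adjusted p = 0.021). That call was not followed with single libraries left out. With the RBM33 shRNAs HIF1A had a difference of -0.10 (limma adjusted p = 0.49). EIF2AK1, the heme-regulated kinase upstream of ATF4, fell by 0.36 and 0.33 in the ALKBH5 and RBM33 sets (limma adjusted p = 0.0016 and 0.0023). CEBPG, a partner of ATF4, fell by 0.27 and 0.36 (limma adjusted p = 0.011 and 0.00048).

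The call of ATF4 in the ALKBH5 set was lost without ALKBH5 Scramble replicate 1 (0.18 on the log2 scale) or 3 (0.21), ALKBH5 shRNA-2 replicate 3 (0.20) or ALKBH5 shRNA-1 replicate 1 (0.21). That of CEBPG in the same set was lost without ALKBH5 Scramble replicate 1 or 2 (-0.24 each) or ALKBH5 shRNA-1 replicate 2 (-0.21).

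Of 13 tested partners and turnover factors of the DDIT4 protein, 1 fell in both sets, and its log2 changes were larger than those of DDIT4. TXNIP, a thioredoxin-binding protein that also binds the DDIT4 protein, had 93.62 to 110.1 CPM in the ALKBH5 shRNA libraries, against 248 to 278.4 CPM in the ALKBH5 scramble libraries. The fall was 1.34 (log2, SE 0.0869, limma adjusted p = 1.7e-10). With the RBM33 shRNAs it had 92.28 to 124.9 CPM, against 287.6 to 299 CPM with scramble, and fell by 1.41 (SE 0.0837, limma adjusted p = 2.2e-11). Like DDIT4, it showed no overlap between shRNA and scramble libraries in either set. DDIT4L, the paralog also called REDD2, was near the low end of the table, at 1.35 to 4.44 CPM with the ALKBH5 shRNAs, against 1.23 to 3.43 CPM with scramble, and was called in neither set. SFN, a 14-3-3 protein of squamous epithelium, was under the 1 CPM needed for testing.

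Among 11 genes of the step that DDIT4 acts on, 2 rose and 2 fell in the ALKBH5 set, and 1 rose and 0 fell in the RBM33 set. TSC1, a subunit of the complex that turns RHEB off, had 63.36 to 69.64 CPM with the ALKBH5 shRNAs, against 53.35 to 56.88 CPM with scramble. It rose by 0.29 (limma adjusted p = 0.027), and by 0.47 in the RBM33 set (limma adjusted p = 0.00038). The call in the ALKBH5 set was lost without any 1 of 6 of its 7 libraries, all but ALKBH5 shRNA-1 replicate 1, with values between 0.26 and 0.31 and adjusted p up to 0.098. TSC2 had log2 differences of -0.05 and 0.19, and RHEB of 0.22 and -0.07, in the ALKBH5 and RBM33 sets, and neither was called.

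Of 11 genes of the mTOR complexes, 3 rose in both sets, and 1 fell in each set. DEPTOR fell by 0.61 on the log2 scale in the ALKBH5 set (limma adjusted p = 0.031). MLST8 fell by 0.29 in the RBM33 set (limma adjusted p = 0.018). The calls of DEPTOR and MLST8 were not followed with single libraries left out. RPTOR, the subunit that defines mTORC1 and recruits its substrates, had 79 to 93.61 CPM with the ALKBH5 shRNAs, against 52.4 to 58.85 CPM with scramble. It had 74.55 to 95.33 CPM with the RBM33 shRNAs, against 43.83 to 54.96 CPM with scramble. RPTOR rose by 0.57 and 0.77 on the log2 scale in the ALKBH5 and RBM33 sets (limma adjusted p = 0.00017 and 1.4e-06). MAPKAP1 and RICTOR, subunits of mTORC2, rose as well. The rise of MAPKAP1 was 0.45 and 0.52 (limma adjusted p = 0.0016 and 0.00022), and that of RICTOR was 0.32 and 0.50 (limma adjusted p = 0.018 and 0.00022). RICTOR lost its call in the ALKBH5 set without ALKBH5 shRNA-2 replicate 1 (0.28) or ALKBH5 Scramble replicate 2 (0.31) or 3 (0.30). MTOR itself, the kinase of both complexes, had differences of 0.06 and 0.10 and was called in neither set.

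Of 15 effectors of mTORC1, 3 fell and 0 rose in the ALKBH5 set, and 4 fell and 1 rose in the RBM33 set. RPS6KB2, a ribosomal S6 kinase, fell in both, by 0.40 and 0.37 on the log2 scale (limma adjusted p = 0.0049 and 0.0055). It had 41.86 to 43.57 CPM with the ALKBH5 shRNAs, against 53.46 to 61.16 CPM with scramble. Protein phosphorylation, the usual measure of mTORC1 activity, is outside RNA data.

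Of 24 tested genes known to be induced along with DDIT4 under stress, 7 fell and 1 rose in the ALKBH5 set, and 8 fell and 1 rose in the RBM33 set. ASNS, the asparagine synthetase that ATF4 induces, had 104 to 118.8 CPM with the ALKBH5 shRNAs, against 169.2 to 189 CPM with scramble. It had 98.09 to 115.7 CPM with the RBM33 shRNAs, against 199.1 to 205.3 CPM with scramble. ASNS fell by 0.67 and 0.88 in the ALKBH5 and RBM33 sets (limma adjusted p = 1.1e-06 and 6.2e-09). NDRG1, a hypoxia-induced gene, fell by 0.54 and 0.84 (limma adjusted p = 0.0081 and 6.2e-05), though its call in the ALKBH5 set was lost without ALKBH5 Scramble replicate 2 (-0.45). The 1 gene of this group that rose was CDKN1A, the cell cycle inhibitor p21, by 0.54 and 0.48 (limma adjusted p = 0.02 and 0.027).

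The calls of CDKN1A did not hold when single libraries were left out. In the ALKBH5 set its call was lost without ALKBH5 Scramble replicate 2 (0.44) or 1 (0.55), ALKBH5 shRNA-1 replicate 1 (0.47) or ALKBH5 shRNA-2 replicate 3 (0.48). With the RBM33 shRNAs it was lost without RBM33 Scramble replicate 2 (0.38) or 3 (0.51), RBM33 shRNA-1 replicate 1 (0.43) or RBM33 shRNA-2 replicate 1 (0.40) or 3 (0.45).

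**Figure D3:**
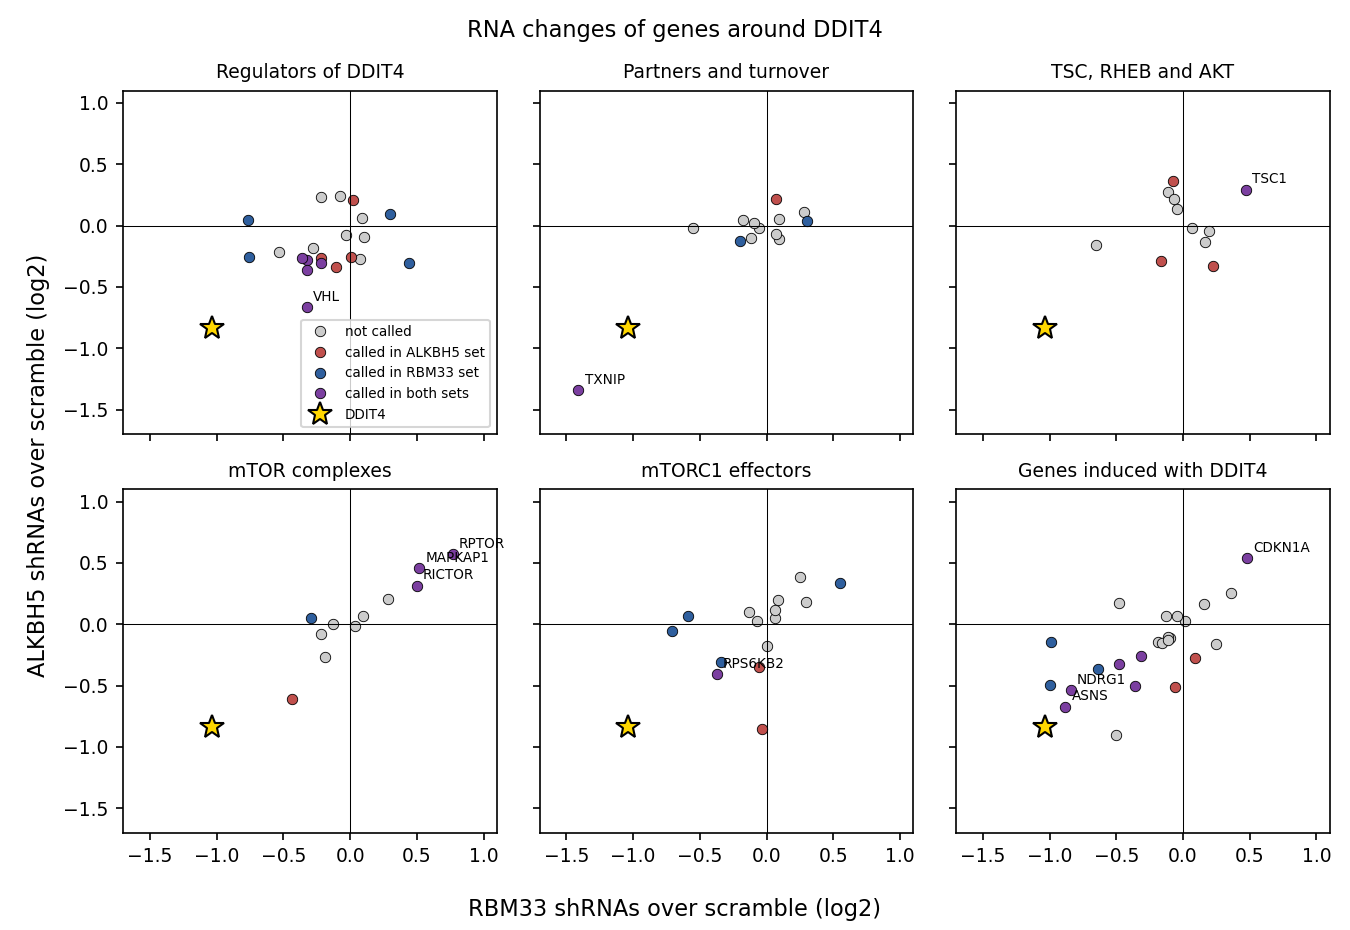
Log2 changes of the 95 tested genes around DDIT4, in 6 panels by role, with the RBM33 shRNAs over scramble on the horizontal axis and the ALKBH5 shRNAs over scramble on the vertical axis. Each circle is a gene, coloured by the set in which it was called, and the star is DDIT4. TXNIP lies beyond DDIT4, at -1.34 and -1.41 in the ALKBH5 and RBM33 sets, while RPTOR, RICTOR, MAPKAP1, TSC1 and CDKN1A are the genes called higher in both.

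Changes of m6A were common among these genes in the ALKBH5 tables. Of the 95, 59 had a listed peak with ALKBH5 shRNA-1 and 65 with ALKBH5 shRNA-2 (62.1% and 68.4%). With RBM33 shRNA-1 and RBM33 shRNA-2 there were 17 and 19 (17.9% and 20%). Among the 82 of them averaging 10 CPM or more, the shares were 70.7%, 76.8%, 19.5% and 23.2%, against 50.3%, 58.1%, 12.5% and 17.8% of all genes at that level. In the RBM33 tables every one of these 17 and 19 genes had higher peaks only. Over all genes, 87.6% and 87.5% of the peaks in the RBM33 tables were higher, with a median of 1 peak a gene. Lower peaks only were listed for 11 genes of the list in each ALKBH5 table, and peaks of both kinds for 23 in each. Over all genes, 64.7% and 72.5% of the peaks in the ALKBH5 tables were higher. The shares of all listed genes with peaks of 1 or both kinds were not counted. At least 2 tables held 54 of the 95 genes, and all 4 tables held 9. Among those averaging 10 CPM or more, these were 64.6% and 11% of the 82, against 46.9% and 5.04% of all genes at that level. The 9 were ATF4, EIF2AK1, XBP1, YWHAZ, RPTOR, TTI1, MAF1, SESN2 and ATF3. EIF2AK1 and YWHAZ had higher peaks only in all 4 tables, and SESN2 had 1 lower peak in each ALKBH5 table. XBP1 had lower peaks only in the ALKBH5 tables, 2 in each, and 1 higher peak in each RBM33 table. ATF4, RPTOR, TTI1, MAF1 and ATF3 each had at least 1 lower peak in 1 ALKBH5 table. TXNIP, whose RNA fell most in the list, had 1 higher and 1 lower peak with ALKBH5 shRNA-2, 1 higher peak with RBM33 shRNA-1 and no listed peak in the other tables.

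The gene whose RNA followed DDIT4 most closely over the 15 libraries was SHMT2, the mitochondrial serine hydroxymethyltransferase, with Pearson's r of 0.988 among 10810 genes averaging 10 CPM or more. It had 146.9 to 174.8 CPM with the ALKBH5 shRNAs, against 232.7 to 242.3 CPM with scramble, and 153.8 to 166 CPM with the RBM33 shRNAs, against 253.3 to 270.1 CPM with scramble. The next 7 were TXNIP (0.968), HSPA5 (0.968), H1-10 (0.968), ASNS (0.967), PTPN18 (0.965), AC079781.5 (0.965) and SLC37A4 (0.964). HSPA5, the main chaperone of the endoplasmic reticulum, had 417.6 to 450.4 CPM with the ALKBH5 shRNAs, against 860.5 to 955.7 CPM with scramble. AC079781.5, a long noncoding RNA, shares 20855 bases of its span with ASNS on the same strand, so the reads of these genes may not be separable.

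These values of r describe mainly the gap between the 9 shRNA libraries and the 6 scramble libraries. Within the 9 shRNA libraries, r with DDIT4 was 0.699 for SHMT2 and between -0.472 and 0.305 for the other 7 genes. Within the 6 scramble libraries it was 0.923 for SHMT2, 0.818 for TXNIP and -0.0976 for HSPA5, with the remaining 5 between 0.471 and 0.702. All points share the libraries and their scaling. Ranked by Spearman's rho, SHMT2 was at rank 4 and PTPN18 at 65, and the other 6 were at ranks 222 to 719, so that 1 of the 8 remained among the first 8. Promoters were found for 6 of the 8 genes, and the TATA box absent from the DDIT4 window was found in that of H1-10 only, while TGATGNAA was found in that of ASNS only.

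**Figure D4:**
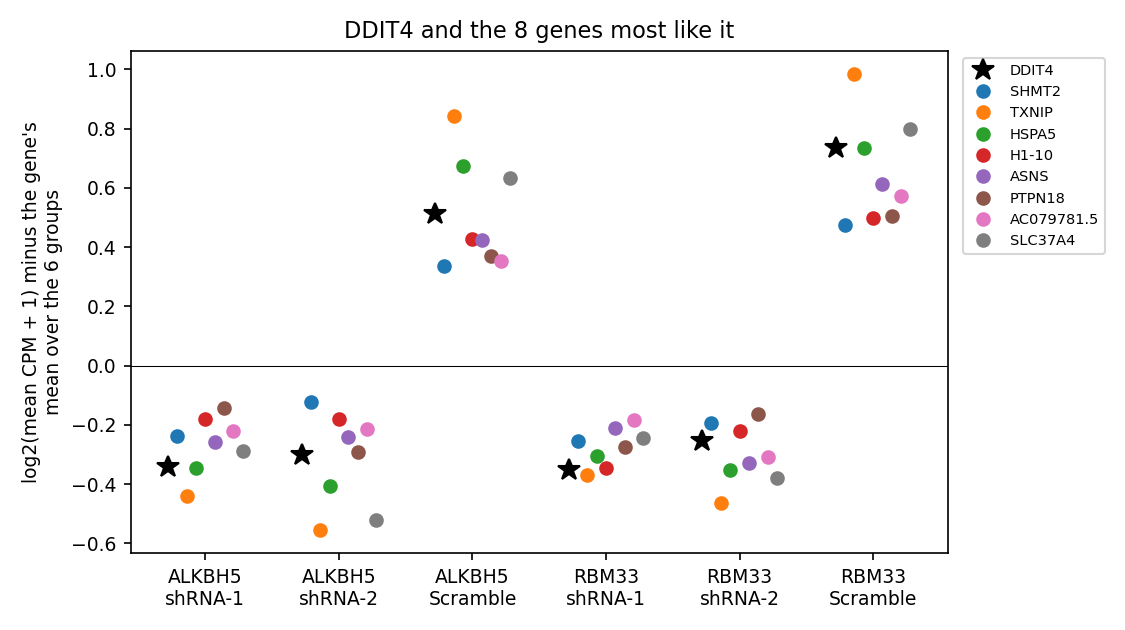
Group means of DDIT4 and of the 8 genes most like it, as log2(mean CPM + 1) minus the gene's mean over the 6 groups, by group. In all 9 genes both scramble groups are above 0 and all 4 shRNA groups are below 0, and TXNIP has the widest gap.

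The neighbouring genes described here were SPOCK2, ASCC1 and ANAPC16 before DDIT4 and DNAJB12 and MCU after it. In the ALKBH5 set 0 of them were called by limma, while 7.93% of all genes were called higher and 7.18% lower. In the RBM33 set ANAPC16 and SPOCK2 were called, while 8.5% of all genes were called higher and 9.25% lower. ANAPC16, a subunit of the anaphase-promoting complex, fell by 0.33 in the RBM33 set (limma adjusted p = 0.022). SPOCK2, at 1.49 to 2.67 CPM with the RBM33 shRNAs and 0.162 to 1.29 CPM with scramble, rose by 0.88 (limma adjusted p = 0.036). ANAPC16 lost its call without RBM33 Scramble replicate 1 (-0.28) or 3 (-0.30) or RBM33 shRNA-1 replicate 2 (-0.27). SPOCK2 lost its call without RBM33 Scramble replicate 1 (0.58) or 3 (0.98), RBM33 shRNA-1 replicate 1 (0.84) or 2 (0.91) or RBM33 shRNA-2 replicate 3 (0.81), and also with edgeR (1.41) and DESeq2 (1.45).

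DDIT4-AS1, listed on the opposite strand at 72274915 to 72275980 and thus inside DDIT4, had 23 to 83 reads a library. It was at 6.38 to 11.3 CPM with the ALKBH5 shRNAs, against 6.68 to 12.3 CPM with scramble, with a log2 difference of -0.06 (limma adjusted p = 0.91). Levels in the RBM33 set were 4.91 to 10.6 CPM with the shRNAs, against 10.2 to 13.4 CPM with scramble, a difference of -0.68 (limma adjusted p = 0.052). That value was on the called side of the threshold with edgeR (-0.73, adjusted p = 0.047), in a limma fit of the RBM33 set alone (-0.68, adjusted p = 0.044), with the replicate block (-0.72, limma adjusted p = 0.043) and at the lowest value with 1 library left out (-0.82, limma adjusted p = 0.014). It was not called in 7 of the 8 fits with 1 library left out, with limma adjusted p up to 0.17. The other alternatives did not call it either. The library kit was stranded, but the sources used here do not give the strand setting of the counting, so reads of DDIT4 and DDIT4-AS1 may not be fully separated.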

How the data were processed

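The labels list 36 samples in 12 groups, 18 of them RNA-seq and 18 m6A-seq. Of the RNA-seq libraries 15 were used, and 0 columns were of other samples. Per the submitters' processing notes, cutadapt 1.18, HISAT2 2.1.0, featureCounts (in Subread 1.6.4) and edgeR 3.24.3 were used on the RNA reads, with hg38 as the genome. The authors deposited CPM of a normalized library size, a signal whose columns do not sum to the same total. Within 0.1 of a read, 100% of its values were whole multiples of 1 read (0.14335 to 0.21983 CPM). A count of 0 allows up to 3 reads, or 0.43 to 0.6595 CPM. Such floors cover counting error only.

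The authors deposited log2 fold changes with adjusted p-values from edgeR and in the layout of DESeq2. They also deposited m6A effects on the natural log scale with p-values, and m6A levels as a fraction with adjusted p-values, 1 value a group. The natural log was read from the values: 4.67% to 7.41% of effects are natural logs of multiples of 0.5 (tolerance 1e-06 on the multiple), and 0% are log2 values of them. No source used here names the m6A peak caller. The design text speaks of siRNA and the titles of shRNA, and the titles were followed.

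The RNA table was tested on log2(CPM + 1) by limma-trend (limma 3.58.1 in R 4.3.3), over 18227 genes averaging 1 CPM or more, in 1 fit of 6 groups with 9 residual degrees of freedom. Genes with a Benjamini-Hochberg adjusted p under 0.05 were called. Fold changes on this scale understate those of low genes. On simulated data, 190 of 200 genes changed by 1 on the log2 scale in the ALKBH5 comparison were recovered, with 8 false calls over 18019 genes. The changed genes were drawn from the more abundant genes only, and the simulated spread was fixed, not estimated from these data. The recovery of genes near 1 CPM was therefore not tested. Replicate pairs differed by more than sampling noise (chi-square per degree of freedom 2.9 to 8.04), so none was merged. Alternatives were edgeR 4.0.16 and DESeq2 1.42.0 on the recovered reads, a pseudocount of 0.25, no filter, scaling to 1 median, a fit of 1 set, a replicate block, each library left out, a stricter p for m6A and an overlap of 50%.

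DDIT4, the gene lists and the tests were chosen with earlier results of these data known. The genes named are DDIT4, ATF4, TXNIP, TSC1, TSC2, RHEB, MTOR, DDIT4L, ALKBH5 and RBM33; up to 3 a role with the largest change among those called alike in both sets; the 8 most like DDIT4; the 3 neighbours on each side; and list genes in at least 2 m6A tables. Some genes that these rules or lists hold are not reported here. DDIT4-AS1, HIF1A, DEPTOR, MLST8, SFN, KRT8, KRT18, VIM and the list genes whose effects differed between the sets were added after their values were seen. Promoters came from RefSeq (GRCh38.p14).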

Additional observations from a re-analysis of the deposited data

Results flagged for a closer look

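The fall of DDIT4 was not shown to differ between the ALKBH5 and RBM33 sets, but 3 genes of the list around it described here and ALKBH5 itself had effects that differed by the test of the difference (limma, adjusted over all genes). XBP1, a transcription factor of the unfolded protein response, had a difference of 0.81 on the log2 scale (ALKBH5 effect minus RBM33 effect, adjusted p = 0.00036). It was at 298 to 317.7 CPM with the ALKBH5 shRNAs, against 266.9 to 323 CPM with scramble, and at 177.1 to 238.6 CPM with the RBM33 shRNAs, against 369.5 to 405.9 CPM with scramble. The ALKBH5 and RBM33 scramble groups also differed for XBP1, by -0.37 (adjusted p = 0.031). EIF4EBP1, the translation repressor that mTORC1 inactivates, had a difference of 0.65 (adjusted p = 0.0029). MAF1, a repressor of RNA polymerase III, had one of 0.65 (adjusted p = 0.018), lost without RBM33 Scramble replicate 1 (0.59) or 2 (0.64). ALKBH5, the target of 1 set, had one of -0.47 (adjusted p = 0.023). Its call was lost without any of RBM33 Scramble replicates 1, 2 and 3, ALKBH5 Scramble replicates 2 and 3 and ALKBH5 shRNA-2 replicate 1, with values of -0.48 to -0.40. Groups of 2 or 3 libraries are too small for a check of single outlying libraries.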

How the results depend on the processing

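The fall of DDIT4 in both sets and with each of the 4 shRNAs kept its direction and its call under all alternatives run. Over the alternatives other than leaving out a library it was -0.84 to -0.83 in the ALKBH5 set (adjusted p at most 4.2e-07) and -1.05 to -1.0 in the RBM33 set (adjusted p at most 5.6e-09). Without 1 library it was -0.87 to -0.80 and -1.10 to -1.0. Same-numbered replicates did not deviate together (correlations of -0.0761 to 0.0583), but groups of 2 or 3 libraries cannot show whether the numbers pair the libraries. With the replicate block DDIT4 was -0.84 and -1.05 and 24 and 30 list genes were called. The difference between ALKBH5 shRNA-1 and shRNA-2 ran from -0.12 to 0.034 and that between the ALKBH5 and RBM33 shRNAs from -0.056 to 0.0192 with 1 library left out, both never called. The list genes called numbered 17 to 25 in the ALKBH5 set (30 with all libraries), 21 to 31 in the RBM33 set (31), and 2 to 6 for the difference of the sets (4, and 8 with DESeq2). Over all genes, 1710 to 2358 were called in the ALKBH5 set (2754) and 2062 to 3112 in the RBM33 set (3235). The lowest counts came without scramble libraries: 1710 without ALKBH5 Scramble replicate 1, 2083 and 2062 without RBM33 Scramble replicates 1 and 2, and 17 list genes without ALKBH5 Scramble replicate 1. At a p of at most 0.1 times each table's largest, the DDIT4 peaks numbered 4 of 5, 5 of 6, 0 of 2 and 0 of 1 in the tables of ALKBH5 shRNA-1, ALKBH5 shRNA-2, RBM33 shRNA-1 and RBM33 shRNA-2. By Spearman's rho 1 of the 8 genes most like DDIT4 was retained. Uncalled genes changed sign, and the cause was not tested: in the RBM33 set ASCC1 (0.0056 with median scaling, -0.0907 to 0.0208 without 1 library) and ATF4 (-0.0089 to 0.05), and in the ALKBH5 set DNAJB12 (-0.0018 with edgeR, -0.0916 to 0.0922), MCU (-0.0025 to 0.196), TSC2 (-0.154 to 0.0622), DDIT4L (-0.337 to 0.158), SPOCK2 (-0.15 to 0.133) and DDIT4-AS1 (-0.257 to 0.139). Median scaling moved libraries by -0.0205 to 0.0339 on the log2 scale.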
